A study of Mus musculus with 3 samples.

Results

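The actin, myosin and contractile cytoskeleton genes comprised 53 genes, taken from the deposited table of 51826 rows by gene name. They were grouped by role as actins, filament crosslinkers, calponin and caldesmon family genes, myosin II chains with their light chain kinase, tropomyosins, ROCK and LIM kinases, cofilin and profilin genes, the Arp2/3 complex with its activators, formins with capping and severing genes, ERM linkers and Srf. All 53 names were found on 1 row each. Messenger RNA had been profiled in ST2, a stromal cell line from mouse bone marrow, to look for signaling downstream of NELL2 and fibronectin 1 (Fn1). There were 3 libraries, 1 in each group. Vector without insert was given with control siRNA to the control cells and with siRNA against Fn1 to the Fn1 knockdown cells, and the NELL2 overexpression cells received the expression construct together with control siRNA. All cells were thus transiently transfected with a plasmid and with an siRNA at 30 nM, and the line was grown in serum-containing medium. Bulk RNA of this kind cannot tell fewer cells of a type apart from less RNA per cell.

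Actin monomers assemble into filaments whose growth is set by nucleators (the Arp2/3 complex and formins), by profilin, by capping and severing proteins and by cofilin. Bipolar filaments of nonmuscle myosin II slide actin filaments past each other when the regulatory light chain is phosphorylated, which the ROCK kinases and myosin light chain kinase promote, and tropomyosins, calponins and caldesmon line the filament and tune this. In stromal and bone-forming cells such filaments end at integrin adhesions that bind fibronectin outside the cell, and many of the genes are known targets of serum response factor (SRF).

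Values are FPKM, in which fragments are divided by transcript length and by the library total, as the authors deposited them. The estimated depth was 23000000 fragments for the control, 23700000 for NELL2 overexpression and 24200000 for Fn1 knockdown. Nell2 was at 0.640, 326 and 1.06 FPKM and Fn1 at 2802, 2489 and 137 FPKM in these libraries, in the directions of the labels. All 11 stromal marker genes examined lay above 7 FPKM in each library, with summed levels of 3003, 3244 and 2775 FPKM. A difference below is log2(FPKM + 1) in the treated library minus the control, so that -1 or 1 is 2-fold on this scale. Genes were compared where either library reached 1 FPKM. With 1 library in each group no difference has a replicate check and no test was made, so the terms higher and lower compare libraries. The 95% counting intervals given with some values are those of the log2 ratio of FPKM, estimated from fragment numbers, and cover counting error only. Unless stated otherwise they use the median coding transcript length. Both comparisons used the same control library.

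The contractile genes were among the abundant transcripts of ST2 cells. Their part of all FPKM was 2.91% in the control library, 2.72% in the NELL2 overexpression library and 2.96% in the Fn1 knockdown library. Their summed level was 11607 FPKM in the control, and the treated libraries held 93.5% and 101% of it. The median member was at 133, 153 and 124 FPKM in the libraries of control, NELL2 overexpression and Fn1 knockdown cells, an order used for all sets of 3 values below. Each is the level of a different gene (Actr3, Cnn3 and Arpc3 in turn), so these medians do not measure how the members differed. In every library 50 of the 53 genes reached 10 FPKM, and 28, 28 and 29 genes reached 100 FPKM. Acta2, encoding smooth muscle α-actin, was highest in the control at 1027 FPKM, and only 33 rows of the whole table lay above it there. Cfl1, encoding cofilin 1, came next at 938 FPKM and then Actb, encoding cytoplasmic β-actin, at 861 FPKM. The cardiac actin gene Actc1 was lowest, at 0.083, 0.133 and 0.315 FPKM, or about 2, 3 and 7 fragments by the estimate, and was the member that fell below the minimum level.

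**Figure D1:**
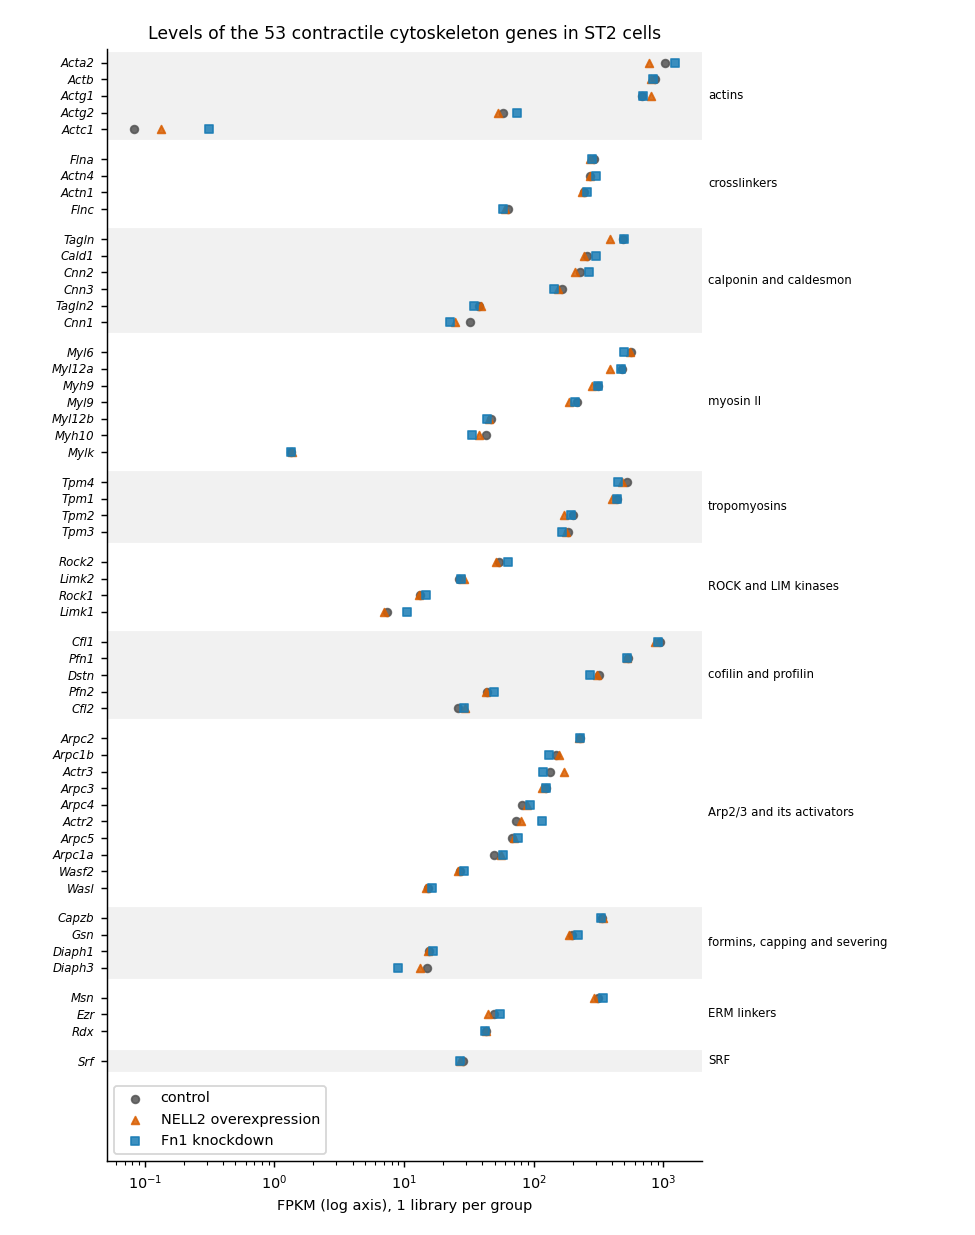
FPKM of the 53 genes (log axis) in the control (circles), NELL2 overexpression (triangles) and Fn1 knockdown (squares) libraries, grouped by role. Each symbol is 1 library; most genes lie above 10 FPKM and the symbols of a gene lie close together beside the range between genes, with Actc1 near 0.1 FPKM and Mylk near 1 FPKM as the lowest.

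None of the 52 tested members differed by 2-fold in either comparison. The background of 2-fold differences over all tested genes was 0.652% with NELL2 overexpression and 1.23% after Fn1 knockdown. A smaller size, a difference of 0.32, was therefore used to describe the members, which is 25% higher or 20% lower than the control on the scale of FPKM + 1. With NELL2 overexpression 1 of the 52 tested members was higher by this size (1.92%, against 5.5% of all genes) and 3 were lower (5.77%, against 4.05%). After Fn1 knockdown 3 were higher (5.77%, against 10.2% of all genes) and 3 were lower (5.77%, against 12%). The share of members past 0.32 in size after Fn1 knockdown thus lay below the background in both directions.

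By direction alone, 13 of 52 members were higher than the control and 39 lower with NELL2 overexpression. Over all genes 52.3% were higher in that comparison. The median difference of the members was -0.055, against 0.0072 over all genes, and their standard deviation was 0.14 against 0.25. After Fn1 knockdown 26 members were higher and 26 lower, where 49.5% of all genes were higher, with a median of 0.0040 against -0.0028 and a standard deviation of 0.22 against 0.34. At 100 FPKM or more, 5 of 28 members were higher with NELL2 overexpression, where 53.7% of 627 genes at that level were, and the medians were -0.094 and 0.013. After Fn1 knockdown 12 of 29 were higher at that level, where 52.99% of 668 genes were, with medians of -0.023 and 0.018. The members thus leaned lower with NELL2 overexpression by a small amount, also among genes of like level, and after Fn1 knockdown they were evenly divided as a whole, with more lower than higher at 100 FPKM or more. The stromal markers went the other way with NELL2 overexpression, where 10 of 11 were higher with a median difference of 0.10. Of these, Vcam1 (0.43) and Ly6a (0.40) were past 0.32 in size. After Fn1 knockdown 4 were higher, with Cxcl12 (0.47) past that size, and 7 were lower, and the median was -0.05. The part of these markers in the values of the members was not tested. Counts of higher and lower genes in the roles described next are to be read against the 52.3% and 49.5% of all genes that were higher. The lean toward lower values with NELL2 overexpression had been seen in these data for an overlapping list before the members were chosen, so the count is no independent support for it.

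**Figure D2:**
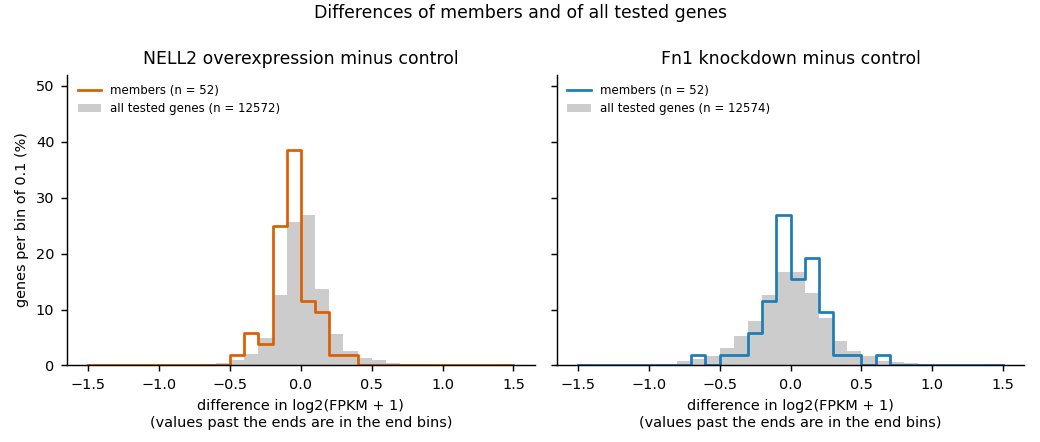
Histograms of the difference in log2(FPKM + 1) from the control for NELL2 overexpression (left) and Fn1 knockdown (right), in bins of 0.1, as the percentage of all tested genes (grey bars, 12572 and 12574 genes) and of the 52 tested members (line). The members lie within -0.42 to 0.35 on the left and -0.69 to 0.65 on the right, inside the spread of all genes.

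Among the actins, Acta2 differed from the control in opposite directions in the treated libraries. Its level was 1027, 768 and 1227 FPKM. The differences were -0.42 (counting interval -0.44 to -0.40) and 0.26 (0.24 to 0.28). Acta2 (GENCODE M21, GRCm38 chromosome 19, 34241090 to 34255590, minus strand) was hence lowest with NELL2 overexpression and highest after Fn1 knockdown, and it was the member farthest below the control in the first comparison. Actg1, encoding cytoplasmic γ-actin, was at 679, 802 and 690 FPKM, a difference of 0.24 with NELL2 overexpression and 0.02 after Fn1 knockdown. Actb was at 861, 801 and 830 FPKM, with differences of -0.10 and -0.05. The enteric smooth muscle actin gene Actg2 was at 57.5, 52.9 and 74.6 FPKM, with differences of -0.12 and 0.37 (counting interval of the latter 0.26 to 0.49).

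The makeup of the actin pool followed from these values. Acta2 made up 39.1% of the FPKM of the 6 actin genes in the control, against 31.6% when NELL2 was overexpressed and 43.2% when Fn1 was knocked down. Actg1 made up 25.8%, 33.0% and 24.3%, and Actb 32.8%, 33.0% and 29.2%. In the NELL2 overexpression library Actb and Actg1 stood level, at a ratio of Actg1 to Actb of 1.0, whereas the ratio was 0.788 in the control and 0.831 after Fn1 knockdown. The cytoplasmic actin genes summed to 1540, 1603 and 1519 FPKM, and the muscle-type actin genes (Acta2, Actg2, Acta1 and Actc1) to 1089, 824 and 1324 FPKM. The sums of the cytoplasmic genes varied less between libraries than those of the muscle-type genes.

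The skeletal muscle actin gene Acta1, which is no member, was at 4.14, 2.83 and 22.3 FPKM, or about 98, 69 and 555 fragments. Its difference after Fn1 knockdown was 2.18, past 2-fold, and it was higher in that library by a factor of 5.38. Other genes of skeletal or cardiac muscle were near 0. The list of 13 such genes summed to 5.46, 4.23 and 23.2 FPKM, most of it Acta1, and the other 12 were below 1 FPKM in every library, with Myf5, Ckm and Myh6 listed at 0 in all 3. Acta2, Actg2 and Acta1 were thus all highest after Fn1 knockdown while defining genes of striated muscle stayed at or near 0.

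Actin genes resemble each other closely, so their coding sequences are shown for their last 60 bases as the letters by which their transcripts can be told apart. Capitals mark the 19 positions at which the 6 genes are not all alike, read from GENCODE M21 transcripts up to the stop codon.
Actb: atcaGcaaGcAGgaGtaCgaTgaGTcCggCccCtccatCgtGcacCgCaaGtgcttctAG
Actg1: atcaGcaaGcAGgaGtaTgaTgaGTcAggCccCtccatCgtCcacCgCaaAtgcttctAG
Acta2: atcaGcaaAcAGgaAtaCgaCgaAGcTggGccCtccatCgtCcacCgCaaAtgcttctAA
Actg2: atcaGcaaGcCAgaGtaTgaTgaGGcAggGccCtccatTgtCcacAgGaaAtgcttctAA
Acta1: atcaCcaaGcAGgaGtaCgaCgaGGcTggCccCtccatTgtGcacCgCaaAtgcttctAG
Actc1: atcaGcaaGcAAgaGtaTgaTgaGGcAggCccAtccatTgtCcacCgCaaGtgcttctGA
Over the last 1116 coding bases, identity between pairs of the 6 genes ranged from 81.9% (Actg1 and Acta2) to 88.8% (Actb and Actg1), and it was 85.57% for Acta2 and Acta1. No stretch of 150 bases, the read length, in the transcripts of Acta2, Actb or Acta1 was shared exactly with another gene. In Actg1, 43.54% of the 150-base windows occurred also in other annotated genes (Gm12715, Gm8399 and Gm16385), and its exons overlapped Gm23419 and Mir6935 on the same strand, so its level is less certain than those of Acta2 and Actb.

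The calponin and caldesmon family held 2 more genes past 0.32 in size with NELL2 overexpression, both lower than the control. Tagln, encoding transgelin, a calponin-like filament binding protein abundant in smooth muscle, was at 488, 385 and 499 FPKM, with differences of -0.34 (counting interval -0.38 to -0.30) and 0.03. Cnn1, encoding calponin 1, was at 32.2, 24.8 and 22.7 FPKM, with differences of -0.36 (-0.53 to -0.22) and -0.48 (-0.66 to -0.34). Cnn1 was thus lower in both treated libraries, whereas Tagln was below the control with NELL2 overexpression and close to it after Fn1 knockdown (counting interval -0.0057 to 0.069, or 0.0025 to 0.061 with the longest transcript length). Of the other calponins, Cnn2 was at 226, 207 and 265 FPKM and Cnn3 at 166, 153 and 144 FPKM. Cald1, encoding caldesmon, was at 255, 245 and 303 FPKM and Tagln2 at 37.6, 39.3 and 34.4 FPKM. Within the calponins the share of Cnn2 was 53.3%, 53.8% and 61.4%. In all, 5 of the 6 genes of this group were lower with NELL2 overexpression and 3 of 6 after Fn1 knockdown, with a counting interval that included 0 for Tagln2 in both and for Tagln in the latter.

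Markers of smooth muscle and pericytes were examined beside these values, since Acta2, Tagln and Cnn1 are abundant in those cells. The 8 genes summed to 55.3, 45.4 and 45.3 FPKM. Smtn, encoding smoothelin, made up most of it at 35.8, 28.8 and 26.1 FPKM. Lmod1 was at 10.3, 8.45 and 9.09 FPKM, and Mcam at 5.62, 4.55 and 7.09 FPKM. The defining genes were low, with Myh11, the smooth muscle myosin heavy chain gene, at 0.889, 0.532 and 1.07 FPKM and Myocd, a cofactor of SRF, at 0.061, 0.065 and 0.048 FPKM. Notch3 was at 1.69, 1.82 and 1.16 FPKM, and Des and Rgs5 were below 1 FPKM throughout. Of the markers at 1 FPKM or more in either library, 3 of 4 were lower with NELL2 overexpression and 3 of 5 after Fn1 knockdown. The summed markers, carried by Smtn and Lmod1, were lower in both treated libraries, while single genes went either way, and their part in the values of Acta2, Tagln and Cnn1 was not tested. Endothelial (4 genes, summed at 1.75, 1.78 and 1.97 FPKM), epithelial (4 genes, 0.307, 0.412 and 0.291 FPKM) and blood markers (4 genes, 5.61, 5.79 and 2.94 FPKM) were low throughout. In the blood list the macrophage gene Cd68 was at 4.08, 3.54 and 1.57 FPKM.

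Myosin II genes lay mostly below the control. With NELL2 overexpression 6 of the 7 genes were lower, and after Fn1 knockdown 7 of 7. The counting interval included 0 for 3 of the 7 in the first comparison (Myl6, Myl12b and Mylk) and for 4 in the second (Myl12a, Myl12b, Mylk and Myh9). Myh9, encoding the most abundant nonmuscle myosin heavy chain here, was at 312, 282 and 312 FPKM, and Myh10, encoding the other one, at 42.6, 37.8 and 33.6 FPKM. The difference of Myh10 was -0.17 with NELL2 overexpression and -0.33 after Fn1 knockdown (counting interval of the latter -0.39 to -0.29), just past 0.32 in size. The ratio of Myh9 to Myh10 was 7.31 and 7.44 in the control and NELL2 overexpression libraries and 9.27 after Fn1 knockdown.

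The light chains set the activity of these motors. Myl12a, encoding a regulatory light chain, was at 477, 385 and 467 FPKM, and its difference of -0.31 with NELL2 overexpression was just short of the 0.32 used here. Myl9, encoding another, was at 217, 187 and 206 FPKM, and Myl12b at 46.7, 45.4 and 43.9 FPKM. The 3 regulatory light chain genes together held 741, 618 and 717 FPKM, so that the NELL2 overexpression library was lowest. The name Myl12b has 2 gene models. Exons of Myl12a overlap those of a model of this name on the same strand, and 21.25% of the 150-base windows of Myl12a occurred in Myl12b. The division of reads between these genes is thus uncertain. The essential light chain gene Myl6 was at 564, 550 and 497 FPKM, with 12.34% of its windows shared with 3 other annotated genes (Gm8894, Gm5526 and Gm10080). Mylk, encoding myosin light chain kinase, was near the minimum level at 1.35, 1.36 and 1.33 FPKM.

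Tropomyosin genes were lower with NELL2 overexpression in 4 of 4 cases, by differences of -0.21 to -0.04. After Fn1 knockdown 3 of 4 were lower, by -0.23 to -0.03, and Tpm1 was at 0.01. Tpm4 was at 522, 478 and 443 FPKM, Tpm1 at 438, 401 and 441, Tpm2 at 200, 172 and 195, and Tpm3 at 183, 178 and 165. Tpm4 and Tpm1, which held 38.9% and 32.6% of the tropomyosin sum in the control, stood level after Fn1 knockdown, with shares of 35.6% and 35.4%. None passed 0.32 in size, and the counting interval included 0 for Tpm3 with NELL2 overexpression and for Tpm1 and Tpm2 after Fn1 knockdown. For Tpm3, 32.2% of the 150-base windows occurred in Tpm3-rs7.

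Of the crosslinkers, Flna, encoding filamin A, was at 293, 269 and 281 FPKM, and Flnc, the filamin of muscle, at 63.6, 60.2 and 58.2 FPKM. The α-actinin genes Actn1 and Actn4 were at 244, 234 and 259 FPKM and at 270, 272 and 303 FPKM. The filamins were thus lower in both treated libraries and the α-actinins higher after Fn1 knockdown, all by differences of 0.17 or less in size.

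The ROCK kinases, which act on myosin, and the LIM kinases, which act on cofilin, were higher after Fn1 knockdown (4 of 4, differences of 0.05 to 0.46), with a counting interval that included 0 for Limk2. Limk1, encoding LIM kinase 1, which phosphorylates and inactivates cofilin, was at 7.35, 7.05 and 10.5 FPKM, a difference of -0.05 with NELL2 overexpression and 0.46 (counting interval 0.35 to 0.67) after Fn1 knockdown. Limk2 was at 26.7, 28.8 and 27.6 FPKM, so that the ratio of Limk1 to Limk2 was 0.276, 0.245 and 0.380. Rock2 was at 53.6, 51.5 and 62.8 FPKM and Rock1 at 13.3, 13.1 and 14.6 FPKM. Limk1 was the only kinase of the 4 past 0.32 in size.

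Their target in filament turnover varied little. Cfl1 was at 938, 861 and 902 FPKM, the muscle cofilin gene Cfl2 at 26.0, 29.6 and 28.9 FPKM, and Dstn, encoding destrin, a relative of cofilin, at 316, 306 and 272 FPKM. Pfn1, encoding profilin 1, which delivers actin monomers to growing ends, was at 533, 524 and 524 FPKM and Pfn2 at 43.9, 43.0 and 49.1 FPKM. The largest difference among these 5 genes was -0.22, for Dstn after Fn1 knockdown.

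The Arp2/3 complex, which nucleates branched filaments, held the member farthest above the control in each comparison. Actr2, encoding Arp2, was at 73.5, 80.0 and 116 FPKM, with differences of 0.12 (counting interval 0.07 to 0.17) and 0.65 (0.61 to 0.70). Actr3, encoding Arp3, was at 133, 170 and 117 FPKM, with differences of 0.35 (0.28 to 0.43) and -0.18 (-0.26 to -0.09). Actr3 was thus the only member higher by over 0.32 with NELL2 overexpression, and Actr2 had the highest difference of the members after Fn1 knockdown. The ratio of Actr2 to Actr3 was 0.554, 0.472 and 0.989 by FPKM. Actr2 was thus below Actr3 in the control and NELL2 overexpression libraries and about level with it after Fn1 knockdown. Actr2 (chromosome 11, 20062304 to 20112913, minus strand) and Actr3 (chromosome 1, 125392905 to 125435727, minus strand) overlap no other gene on their strand, and 7.575% of the 150-base windows of Actr3 occurred in other genes (Gm8822 and Gm15899).

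The remaining subunits stayed within 0.32 of the control. Arpc1a was at 49.4, 55.5 and 57.7 FPKM and its paralog Arpc1b at 148, 156 and 132 FPKM, so that the share of Arpc1b in their sum was 75.0%, 73.7% and 69.5%. Arpc2, the highest subunit, was at 229, 225 and 227 FPKM, Arpc3 at 124, 117 and 124, Arpc4 at 81.0, 89.2 and 92.8, and Arpc5 at 67.9, 70.6 and 76.0. Exons of Arpc4 overlap those of Ttll3 on the same strand. The activators Wasl (N-WASP) and Wasf2 (WAVE2) were at 15.2, 14.6 and 16.3 FPKM and at 27.0, 26.0 and 29.2 FPKM. In all, 6 of the 10 genes were higher with NELL2 overexpression and 7 of 10 after Fn1 knockdown, with a counting interval that included 0 for 6 (Arpc1b, Arpc2, Arpc3, Arpc5, Wasl and Wasf2) and 3 of the 10 (Arpc2, Arpc3 and Wasl).

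Among formins, capping and severing genes, Diaph3 stood apart. This formin, which nucleates and elongates unbranched filaments, was at 15.0, 13.3 and 8.93 FPKM, with differences of -0.16 (counting interval -0.33 to -0.02) and -0.69 (-0.92 to -0.58). It was the member farthest below the control after Fn1 knockdown, at about 451 fragments against 719. Diaph1, encoding the related formin, was at 15.6, 15.2 and 16.7 FPKM, and its share of the sum of both was 51.0%, 53.4% and 65.1%. Capzb, encoding a subunit of capping protein, was at 337, 339 and 330 FPKM, and Gsn, encoding gelsolin, which severs and caps filaments, at 198, 187 and 219 FPKM. Ezrin, moesin and radixin tie filaments to the membrane, and their genes Ezr (49.0, 44.4 and 54.4 FPKM), Msn (313, 289 and 340) and Rdx (43.0, 42.6 and 42.0) were lower in 3 of 3 cases with NELL2 overexpression and higher in 2 of 3 after Fn1 knockdown, with a counting interval that included 0 for Rdx in both.

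**Figure D3:**
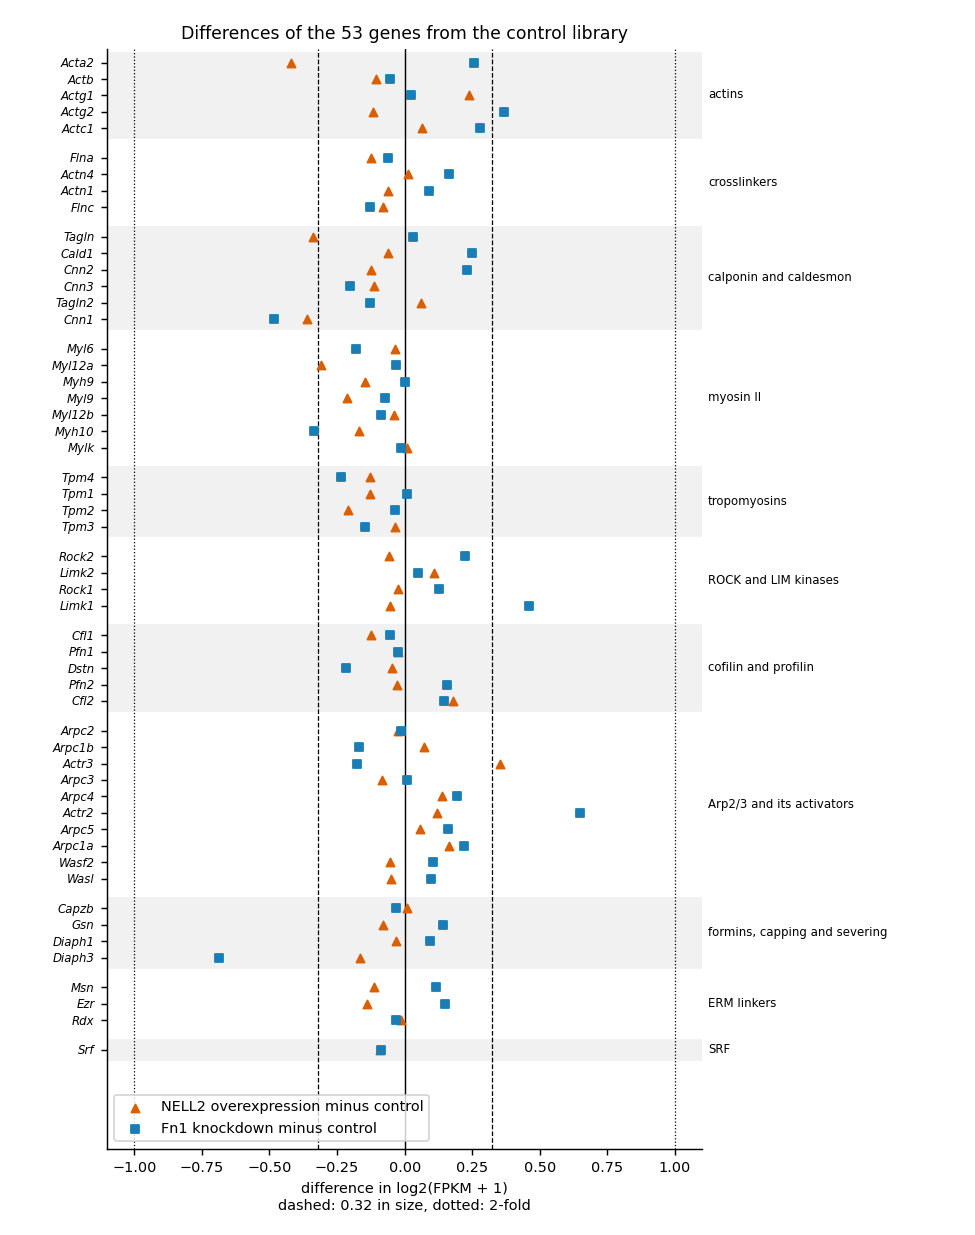
Difference in log2(FPKM + 1) from the control for each of the 53 genes with NELL2 overexpression (triangles) and after Fn1 knockdown (squares), grouped by role; dashed lines mark a difference of 0.32 in size and dotted lines 2-fold. The symbols past the dashed lines are Acta2, Tagln, Cnn1 and Actr3 with NELL2 overexpression and Actg2, Cnn1, Myh10, Limk1, Actr2 and Diaph3 after Fn1 knockdown, and none reaches a dotted line.

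Pairs of related genes were thus divided in unlike ways between the libraries, most visibly Actr2 and Actr3, Acta2 and Actg1, and Diaph1 and Diaph3.

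**Figure D4:**
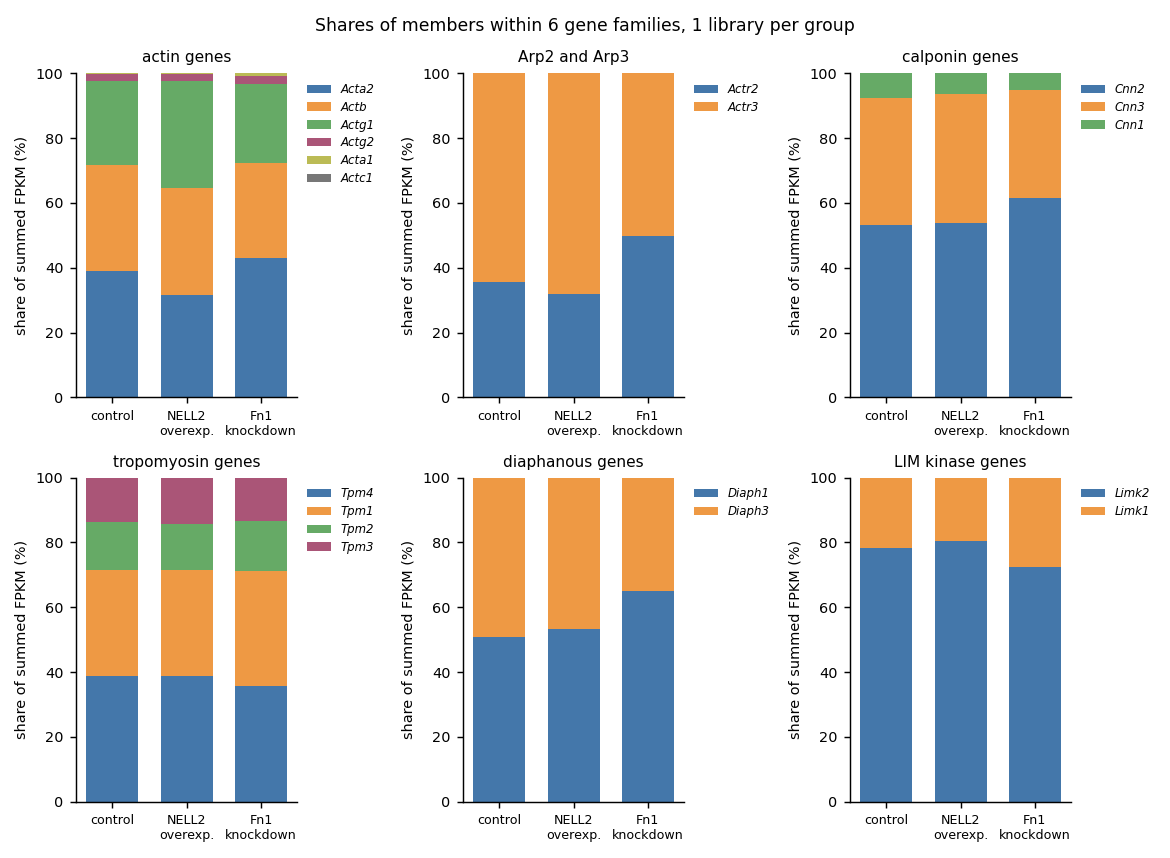
Share of each gene in the summed FPKM of its family (percent, stacked bars from 0 to 100) in each of the 3 libraries for the actins, Arp2 and Arp3, calponins, tropomyosins, diaphanous formins and LIM kinases. Acta2 is at 39.1%, 31.6% and 43.2% of the actins and Actr2 at 35.7%, 32.0% and 49.7% of Arp2 and Arp3.

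Srf itself, the factor known to drive many contractile genes, was at 28.7, 26.9 and 26.9 FPKM, with differences of -0.09 and -0.09 whose counting intervals included 0. Its binding motif, the CArG box (CC, then 6 letters of A or T, then GG, a pattern that reads the same on both strands), was searched in the promoters of RefSeq genes on GRCm38.p6, from 250 bases before the start to 50 after it. It occurred in 7 of the 48 members that had a promoter entry (14.58%) and in 488 of 27025 genes (1.806%). The members Actb, Actg2, Tagln, Rock1 and Diaph1 were not searched. The stretches that hold the box are shown because the motif is the sequence these 7 genes share, 5′ to 3′ on the strand of the gene with the box in capitals.
Actc1 (chr2:114052888-114052947, minus strand): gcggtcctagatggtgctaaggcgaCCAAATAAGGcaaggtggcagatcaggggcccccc
Actg1 (chr11:120348551-120348610, minus strand): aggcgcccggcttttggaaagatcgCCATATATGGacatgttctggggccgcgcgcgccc
Arpc4 (chr6:113377863-113377897, plus strand): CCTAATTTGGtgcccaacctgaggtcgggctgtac
Cnn2 (chr10:79988519-79988578, plus strand): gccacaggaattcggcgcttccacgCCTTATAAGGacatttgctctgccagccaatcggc
Myl6 (chr10:128493025-128493084, minus strand): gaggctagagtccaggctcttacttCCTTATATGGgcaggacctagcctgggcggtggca
Myl9 (chr2:156775278-156775337, plus strand): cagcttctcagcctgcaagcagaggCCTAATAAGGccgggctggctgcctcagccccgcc
Srf (chr17:46556190-46556269, minus strand): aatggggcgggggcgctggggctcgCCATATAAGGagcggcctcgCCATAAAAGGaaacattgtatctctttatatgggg
The box began 47 bases before the start in Actc1, 50 in Myl6, 56 in Cnn2, 90 in Actg1, 161 in Myl9 and 250 in Arpc4, and Srf had 2 boxes, at 82 and 62 bases before its start. These distances are from the RefSeq starts used. The stretches of Actc1 and Myl6 lie within the GENCODE M21 genes, which on the minus strand begin at 114053548 and 128494145. A match is a description of letters and not a site shown to be bound. Of the 6 of these genes at 1 FPKM or more, 2 were higher and 4 lower with NELL2 overexpression, with a median of -0.063, and 3 were higher and 3 lower after Fn1 knockdown, with a median of -0.026. None of the 6 passed 0.32 in size. Of the members past that size, Tagln and Actg2 were among those not searched. Only exact matches within the stretch searched were counted, so a member without a match may still hold a variant box or one farther away. Whether genes with the box are among the largest differences is thus not settled.

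Other genes of actin regulation were taken from a list of 88 names, of which 87 were in the table and 75 were tested in each comparison. With NELL2 overexpression 26 were higher and 49 lower, with a median difference of -0.038, and 0 were higher and 2 lower past 0.32 in size. These are 0% and 2.67%, against 5.5% and 4.05% of all genes, and 34.7% were higher by any amount, against 52.3%. Those 2 genes, named here after their values were seen, were the light chain gene Myl6b (3.91 to 2.28 FPKM) and Abi2 (2.28 to 1.62 FPKM), a subunit gene of the WAVE complex. After Fn1 knockdown 30 were higher and 45 lower, with a median of -0.057, and 3 were higher and 11 lower past 0.32 in size. By this size 4.0% were higher, against 10.2% of all genes, and 14.7% lower, against 12%, and 40.0% were higher by any amount, against 49.5%.

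By role, the medians of the lists given here ranged from -0.097 (SRF cofactors, 2 genes tested) to 0.052 (severing genes and cofilin phosphatases, 6 genes) with NELL2 overexpression, and from -0.12 (other formins and nucleators, 12 genes) to 0.13 (myosin phosphatase and other myosin II genes, 11 genes) after Fn1 knockdown. In the formin list, singled out for its median, 8 of 12 genes were lower after Fn1 knockdown and 4 were so past 0.32 in size (33.3%, against 12% of all genes). These were Diaph2, Daam1, Fmnl2 and Fhod1, and with a pseudocount of 5 Diaph2 (-0.21), Daam1 (-0.24) and Fhod1 (-0.29) fell short of that size while Fmnl2 (-0.59) did not. Between these lay, with the median for NELL2 overexpression first, monomer binding genes (-0.032 and 0.00041 over 6), end capping genes (0.044 and 0.0020 over 6), other Arp2/3 and WAVE genes (-0.044 and -0.074 over 10), Ena/VASP genes (-0.031 and 0.015 over 3) and bundling and side binding genes (-0.055 over 13 and -0.10 over 12). The SRF cofactors and the severing genes were at -0.091 and -0.029 after Fn1 knockdown, and the formins and myosin genes at -0.030 and -0.078 with NELL2 overexpression. Rac1, encoding a GTPase that turns on the WAVE complex and so Arp2/3, was at 123, 117 and 45.6 FPKM, a difference of -1.41 (counting interval -1.48 to -1.37) after Fn1 knockdown, and was the only gene of the 75 past 2-fold. Pls3, encoding plastin 3, a filament bundler known from bone, was at 68.8, 65.4 and 124 FPKM, a difference of 0.84. Fmnl2, encoding a formin that acts with Cdc42 and Rac GTPases, was at 18.1, 19.7 and 10.4 FPKM, a difference of -0.75. Rac1 and Fmnl2 were thus lower and Pls3 and Actr2 higher after Fn1 knockdown, while with NELL2 overexpression the differences of Rac1, Pls3 and Fmnl2 were -0.07, -0.07 and 0.11.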

How the data were processed

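RNA-seq of polyadenylated RNA was performed on 3 libraries of ST2 cells, 1 in each group. Paired ends of 150 bases were read on an MGISEQ-2000 instrument. The submitters' processing notes name HISAT2, DESeq and GRCm38, and the methods give mapping to the mouse transcriptome, a DESeq normalization and a moderated test. The values used here are FPKM as deposited by the authors. How FPKM was computed, with which annotation and use of strand, is not given in the sources used here. FPKM divides by transcript length and library total, so genes with shared sequence or exons can exchange fragments.

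The 53 members, the gene lists and the sizes of difference were chosen with earlier results of these data known. Named were all members, Nell2, Fn1, and list genes that differed by at least 1.5-fold on the log2(FPKM + 1) scale with 1 FPKM or more. Outside this rule, and chosen after their values were seen, are Myl6b, Abi2, Diaph2, Daam1, Fhod1 and the markers Smtn, Lmod1, Mcam, Notch3, Des, Rgs5, Myh11, Myocd, Vcam1, Ly6a, Cxcl12, Myf5, Ckm and Myh6. Members past 0.32 in size on this scale or highest of their family were to be given in every library, and all 53 are. Gene names on several rows were not used (Itgam of the blood list). Gene positions, transcript lengths and coding sequences came from GENCODE M21 (GRCm38) by gene name, and promoters from RefSeq (GRCm38.p6). Depth was estimated from the value that FPKM times length took most often among low values, in genes with 1 transcript of at least 600 bases, and fragments from the median coding transcript length. Intervals are exact Clopper-Pearson intervals at 95% on these fragments and cover counting error only. Computation used Python 3.11.15, pandas 2.3.3, numpy 2.4.6 and scipy 1.17.1. The 2-fold rule for calling differences was tested on simulated data with larger changes and counting error only. The size of 0.32 was not tested in this way. Alternatives were pseudocounts of 0.1 and 5, a minimum of 10 FPKM or none, TPM, median-of-ratios scaling, removal of overlapping genes and the longest transcript length. Chosen after seeing the data were removal of members that share over 10% of their 150-base windows with another gene, the longest length for shares of fragments, and identity of coding sequences in place of protein sequences, which were not used here. The median of 1 list of other actin regulators is not reported here.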

Additional observations from a re-analysis of the deposited data

How the results depend on the processing

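The number of genes past 2-fold over all genes, 82 with NELL2 overexpression and 155 after Fn1 knockdown, depended on low values. It was 178 and 358 with a pseudocount of 0.1, 26 and 50 with a pseudocount of 5, 34 and 87 at 10 FPKM or more, and 210 and 343 in TPM, where a pseudocount and minimum of 1 are smaller in FPKM, and without overlapping genes it was 41 with NELL2 overexpression. The members past 2-fold remained 0 in every setting, and neither the members' medians nor a difference past 0.32 in size changed sign. Members near 0 did, namely, with scaling by median-of-ratios, Capzb for NELL2 overexpression and Arpc2 and Myh9 for Fn1 knockdown, and in TPM Myh9 for Fn1 knockdown. Differences just past 0.32 in size came just short of it for Cnn1 with NELL2 overexpression (-0.32) and Myh10 after Fn1 knockdown (-0.30) with a pseudocount of 5, and, with median-of-ratios scaling, for Myh10 once more (-0.32). The list of other actin genes past 0.32 in size, 2 and 14, was 0 and 8 with a pseudocount of 5, 0 and 9 at 10 FPKM or more, and 5 with NELL2 overexpression in TPM. As shares of estimated fragments, Acta2 was at 47.9%, 39.6% and 52.1% of the actins and Actr2 at 72.5%, 69.2% and 82.5% of Arp2 and Arp3, and with the longest transcript length, chosen after seeing the data, at 40.6%, 33.0% and 44.8% and at 44.0%, 40.0% and 58.3%. Such shares grow with transcript length and are not levels, and the order of the libraries was the one found by FPKM. No paired analysis was possible because there was 1 library a group, and no library could be left out. Counting intervals lay outside 0 for 31 and 35 of the 53 members, reaching a median of 0.053 and 0.051 to either side on the log2 scale at 10 FPKM or more, and for 35 and 40 with the longest transcript. Only with the longest transcript did those of Actg2, Myl6, Arpc1b and Arpc3 lie outside 0 with NELL2 overexpression. After Fn1 knockdown this held for Tagln, Tagln2, Myl12a, Myl12b and Wasl. The intervals do not cover the spread between cultures, which was not measured.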
